A study of Mus musculus with 10 samples.

Results

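Iron and calcium enter the body mainly across enterocytes, the absorptive cells that line the small intestine, and the 10 genes described here encode the main steps of that passage. They were taken by name from a table of jejunal RNA abundance, in which they are 10 of 45707 rows (45706 mouse genes and the yeast gene NDI1). 6 belong to iron (Cybrd1, Slc11a2, Fth1, Slc40a1, Heph and Tfrc) and 4 to calcium (Trpv6, S100g, Atp2b1 and Vdr). All 10 were found, and 9 passed the filter on low values (at least 10 normalized counts in at least 5 mice). The exception was Trpv6.

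The jejunum came from 10 male mice, 5 Vil-Cre controls and 5 Vil-Cre:NDI1 mice. NDI1 is a yeast NADH dehydrogenase of the inner mitochondrial membrane that passes electrons to ubiquinone without complex I. Both genotypes carry Cre recombinase driven by the Villin promoter, which is active in the intestinal epithelium, and the Vil-Cre:NDI1 mice also carry NDI1 behind a lox-stop-lox cassette at ROSA26. The mice were littermates aged 8 to 12 weeks, fasted for 16 to 18 h and killed 1 h after a gavage of water. The RNA came from whole jejunal tissue, so epithelium, muscle, immune cells and vessels are mixed, and fewer cells of a type cannot be told apart from less RNA per cell. Reads assigned to genes numbered 10145705 to 12371530 per library. NDI1 had 1002, 1505, 2659, 1423 and 1287 reads in the Vil-Cre:NDI1 mice and 0, 0, 1, 0 and 0 in the controls. All 11 enterocyte markers were detected and tested, with sums of 349600 to 474300 normalized counts in controls and 433000 to 637300 in Vil-Cre:NDI1 mice.

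Dietary ferric iron is reduced at the brush border by CYBRD1 (duodenal cytochrome b), carried into the cell as ferrous iron by SLC11A2 (DMT1), stored in ferritin or exported at the basolateral side by SLC40A1 (ferroportin), with HEPH (hephaestin) oxidising it again on the way out. Calcium enters through the apical channel TRPV6, is buffered and ferried by S100G (calbindin D9k) and leaves through the pump ATP2B1 (PMCA1), and the vitamin D receptor VDR drives transcription of this route. Both routes are best known from the duodenum, just above the jejunum.

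Iron also controls some of these transcripts through their untranslated regions. Iron responsive elements are hairpins with a bulged C and a 6-base loop. They are bound by iron regulatory proteins when iron is scarce, which blocks translation from a 5′ element and stabilizes the transcript from a 3′ element. A search of both untranslated regions, on the sense strand of each GENCODE M21 transcript (build GRCm38), for CNNNNNCAGTGN (last base not G) with all 5 upper stem pairs and at least 4 of 5 lower stem pairs, G with T counted as a pair, found a match in 14 of 21877 coding genes (0.064%). Of the 10 absorption genes, 3 had one. They are shown because the abundance of these transcripts is only part of how their proteins are known to be controlled; capitals mark the bulged C and the loop.
Fth1, 5′ untranslated region, chr19:9982733-9982759, plus strand: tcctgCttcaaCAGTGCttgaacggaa
Slc40a1, 5′ untranslated region, chr1:45925466-45925492, minus strand: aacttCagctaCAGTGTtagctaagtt
Tfrc, 3′ untranslated region, chr16:32631220-32631246, plus strand: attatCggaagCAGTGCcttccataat
Tfrc, 3′ untranslated region, chr16:32631599-32631625, plus strand: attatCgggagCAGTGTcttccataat
Tfrc, 3′ untranslated region, chr16:32631664-32631690, plus strand: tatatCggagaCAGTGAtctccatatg
Tfrc, 3′ untranslated region, chr16:32631711-32631737, plus strand: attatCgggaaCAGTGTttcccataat
Ftl1, the ferritin light chain and partner of Fth1, 5′ untranslated region, chr7:45459780-45459806, minus strand: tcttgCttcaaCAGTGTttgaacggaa
A match is a description of the letters, and the 7 absorption genes without one lack only this strict pattern in these transcript models. Slc11a2 is among those 7, although some of its transcripts are known for a 3′ element.

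The members spanned a very wide range of levels. Per kilobase of exon (all exons of a gene joined), Fth1 was the most abundant at 3610 ± 605 normalized counts per kb (SD, n = 10 mice) and stood above 98.9% of the 14300 mouse genes tested. Vdr followed at 624 ± 98.8 per kb, Heph at 538 ± 54.2 and Tfrc at 310 ± 85.1. Atp2b1 (138 ± 33.0 per kb) and Slc11a2 (114 ± 16.4 per kb) were of middle rank, above 75.3% and 71.7% of tested genes. S100g came next at 31.9 ± 19.2 per kb, above 41.9% of tested genes, from few reads on a short gene. Slc40a1 at 5.31 ± 3.13 and Cybrd1 at 4.54 ± 1.55 were low, above only 9.05% and 7.11% of tested genes.

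Several steps of this order held in every mouse. Fth1 exceeded Vdr, Heph exceeded Tfrc, Tfrc exceeded Atp2b1, Slc11a2 exceeded S100g and S100g exceeded Slc40a1 per kb in 10 of 10 mice. Vdr was above Heph in 8 of 10, Atp2b1 above Slc11a2 in 7 of 10 and Slc40a1 above Cybrd1 in 5 of 10. On this length the order of those neighbours thus varied between mice, and their differences were not tested. The length used changes some of these counts. With the longest protein-coding transcript in place of all exons, Heph (869 per kb) stood above Vdr (806 per kb), with Vdr the higher in 3 of 10 mice. On that length Atp2b1 exceeded Slc11a2 and Slc40a1 exceeded Cybrd1 in 10 of 10, while Tfrc exceeded Atp2b1 and S100g exceeded Slc40a1 in 9 of 10.

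**Figure D1:**
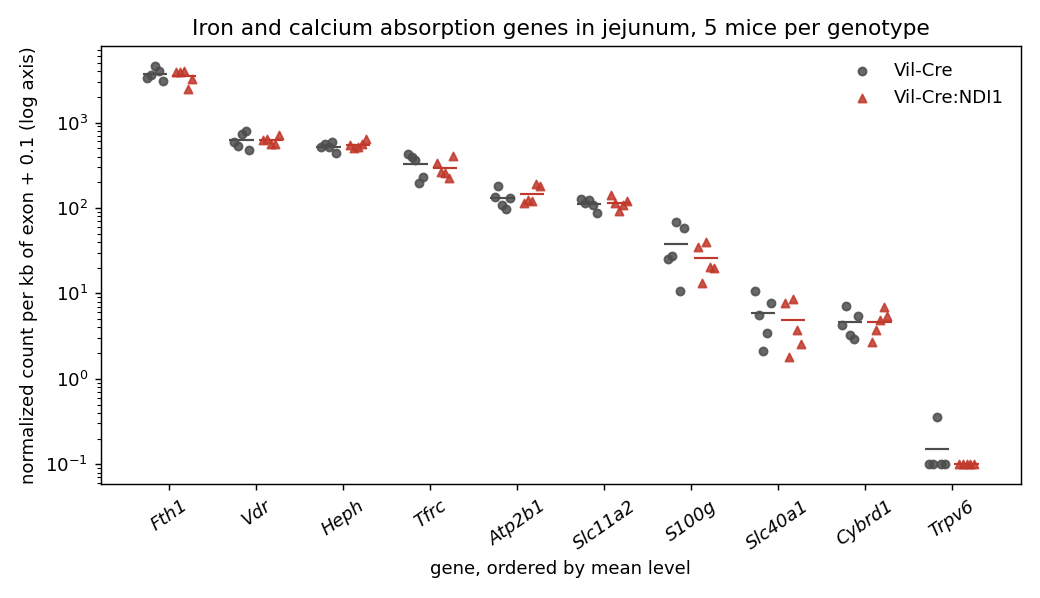
Normalized count per kilobase of exon plus 0.1, on a log axis, for the 10 genes ordered by mean level; each point is a mouse (grey circles, Vil-Cre; red triangles, Vil-Cre:NDI1), and horizontal lines are group means, n = 5. Fth1 lies at 2472 to 4610 per kb and Cybrd1 at 2.57 to 6.97 per kb, Trpv6 has a value above 0 in 1 mouse, and the genotypes overlap for every gene.

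The 2 ends of the iron export step were thus far apart in level. Heph, the ferroxidase (chrX:96455359-96574485), stood 101-fold above Slc40a1, the exporter it serves, in the ratio of mean levels per kb, or 61.2-fold with the longest coding transcript as the length. Heph over Cybrd1, the apical reductase, was 118-fold or 191-fold. Expression of Heph overlaps on the opposite strand with exons of Hsf3, whose own mean was 4.28 normalized counts, and since the strand setting of the counting was not given, reads there cannot be assigned with certainty.

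Fth1, the ferritin heavy chain that stores iron in the cytosol (chr19:9980598-9985098), had 11550, 12340, 15990, 13860 and 10570 normalized counts in Vil-Cre mice 1 to 5 and 13380, 13540, 14060, 8575 and 11370 in Vil-Cre:NDI1 mice 1 to 5. Vil-Cre 3 was highest and Vil-Cre:NDI1 4 lowest, and the groups overlapped. The difference between genotypes was a log2 fold change of -0.09 (Vil-Cre:NDI1 minus Vil-Cre here and throughout, on the log2(value + 1) scale; limma SE 0.16, 95% interval -0.43 to 0.26, adjusted p = 0.998, exact permutation p = 0.635, both two-sided).

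Tfrc, the transferrin receptor that takes up iron from plasma (chr16:32608920-32632794), is in gut highest in dividing crypt cells. Its normalized counts were 2633, 2446, 2254, 1212 and 1442 in controls and 2094, 1647, 1581, 1370 and 2510 in Vil-Cre:NDI1 mice. Both groups had high and low mice, with Vil-Cre 1 at the top and Vil-Cre 4 at the bottom. The log2 fold change was -0.09 with a 95% interval of -0.60 to 0.43 (limma, adjusted p = 0.998; exact permutation p = 0.786). The dividing crypt cell marker sum was 3155 to 4740 for controls against 2952 to 5886 for Vil-Cre:NDI1 animals, and 0 of 8 passed the test.

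Heph was the steadiest of the 9 genes from mouse to mouse, with 3940, 4277, 3916, 4563 and 3367 normalized counts in controls and 4170, 3837, 3986, 4260 and 4876 in Vil-Cre:NDI1 mice. The lowest mouse was Vil-Cre 5 and the highest Vil-Cre:NDI1 5, a 1.45-fold span. These 2 mice also had the lowest (349600) and the highest (637300) summed enterocyte markers, and the part of that in the Heph values was not tested. The genotype means, 4013 ± 448 and 4226 ± 399 (SD, n = 5), gave a log2 fold change of 0.08 with a 95% interval of -0.14 to 0.29 (limma, adjusted p = 0.998; exact permutation p = 0.468), the narrowest among the 9.

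Slc11a2, the apical divalent metal transporter (chr15:100387898-100425072), had 804, 718, 778, 684 and 556 normalized counts in controls and 913, 733, 583, 681 and 764 in Vil-Cre:NDI1 mice. The groups overlapped from 583 to 804 normalized counts, with Vil-Cre:NDI1 1 above and Vil-Cre 5 below that stretch. The genotypes differed by a log2 fold change of 0.05 with a 95% interval of -0.24 to 0.34 (limma, adjusted p = 0.998; exact permutation p = 0.762). Gm5475 shares exon sequence on the opposite strand and had a mean of 4.85 normalized counts.

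Slc40a1, the sole known cellular iron exporter (chr1:45908068-45926523), varied 6.15-fold between mice. It had 95.3, 49.3, 18.03, 30.3 and 69.0 normalized counts in controls and 68.6, 15.5, 77.5, 32.3 and 22.3 in Vil-Cre:NDI1 mice. High and low mice occurred in both genotypes, and the 95% counting intervals of the 102 reads in Vil-Cre 1 (83.2 to 124) and the 17 reads in Vil-Cre:NDI1 2 (9.90 to 27.2, exact Poisson, counting error only) are far apart. Its log2 fold change was -0.31 with a 95% interval of -1.46 to 0.85 (limma, adjusted p = 0.998; exact permutation p = 0.619). Ferroportin is also abundant in macrophages, whose marker sum was 475 to 814 for controls against 336 to 945 for Vil-Cre:NDI1 animals. Their part in the Slc40a1 values was not tested.

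Cybrd1, the ferric reductase (chr2:71117923-71142926), had 22.4, 37.2, 17.03, 15.2 and 28.2 normalized counts in controls and 13.7, 19.1, 25.2, 36.2 and 28.2 in Vil-Cre:NDI1 mice. The means were 24.0 ± 8.96 and 24.5 ± 8.61 (SD, n = 5), and each group held a mouse above 36 normalized counts and a mouse below 16. Its difference between genotypes was a log2 fold change of 0.03 with a 95% interval of -0.69 to 0.75 (limma, adjusted p = 0.999; exact permutation p = 0.929).

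Trpv6, the apical calcium channel (chr6:41620624-41636405), was close to absent. It had 1 read among 111332816 reads over the 10 libraries, in Vil-Cre 3 (1.00 normalized count), and 0 in the other 9. A count of 0 has a 95% counting interval that reaches 3.69 reads (exact Poisson). A floor of 3 reads, close to that bound, equals 2.73 to 3.52 normalized counts in these libraries. A low level or a difference between genotypes was therefore not detectable at this depth.

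S100g, the cytosolic calcium carrier (chrX:162961992-162964599), was present at 5 to 33 reads per library. The gene lies within the span of Ctps2 on the opposite strand, which had a mean of 94.3 normalized counts; their exons do not overlap in the annotation, but with the strand setting unknown the source of these few reads is uncertain. Its normalized counts were 12.1, 13.1, 33.1, 5.05 and 28.2 in controls and 16.7, 6.38, 19.4, 9.79 and 9.39 in Vil-Cre:NDI1 mice. Vil-Cre 3 and 5 were highest and Vil-Cre 4 lowest, so the controls alone spanned the values of both groups. Between genotypes the log2 fold change was -0.38 with a 95% interval of -1.46 to 0.70 (limma, adjusted p = 0.998; exact permutation p = 0.476), the widest uncertainty together with Slc40a1. Atp2b1, which clears calcium at the basolateral membrane, was 4.32-fold above S100g per kb of exon, or 9.23-fold with the longest coding transcript as the length.

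Atp2b1 itself (chr10:98914406-99026143) had 2029, 2744, 1665, 1486 and 2006 normalized counts in controls and 1744, 1876, 1824, 2866 and 2756 in Vil-Cre:NDI1 mice. Vil-Cre 2 and Vil-Cre:NDI1 4 and 5 stood above the other 7. Its log2 fold change was 0.15 with a 95% interval of -0.26 to 0.57 (limma, adjusted p = 0.998; exact permutation p = 0.508).

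Vdr, the nuclear receptor for active vitamin D (chr15:97854425-97910630), had 3338, 2986, 4134, 4447 and 2702 normalized counts in controls and 3548, 3671, 3195, 3140 and 4078 in Vil-Cre:NDI1 mice. The controls held both the highest and the lowest mouse. The means were 3521 ± 745 and 3526 ± 382 (SD, n = 5), and the log2 fold change was 0.02 with a 95% interval of -0.29 to 0.33 (limma, adjusted p = 0.998; exact permutation p = 0.897).

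**Figure D2:**
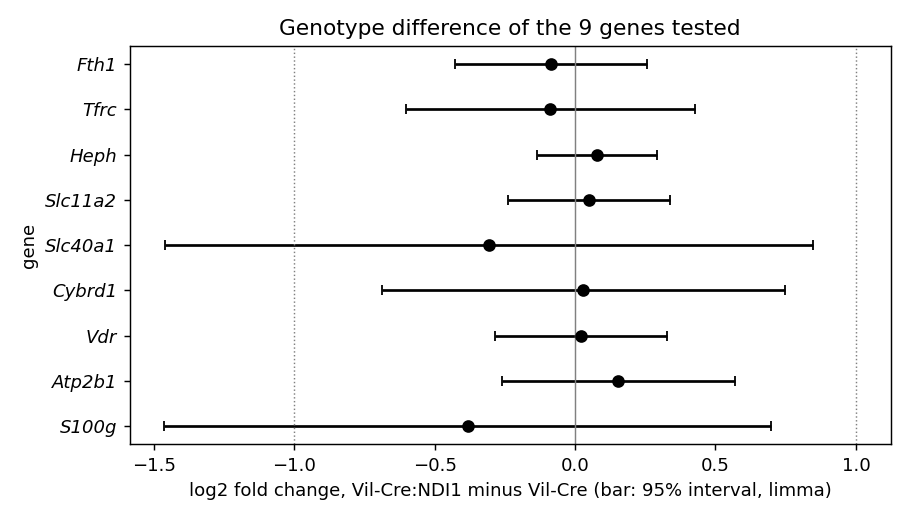
Log2 fold change, Vil-Cre:NDI1 minus Vil-Cre, for the 9 genes tested, with limma's 95% interval as bars (n = 5 mice per genotype); dotted lines mark a 2-fold difference either way. Every interval includes 0, and those of Slc40a1 and S100g reach past the dotted line on the lower side.

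In all, 0 of the 9 genes passed the test between genotypes at an adjusted p under 0.05 (limma; 0% of the 14300 mouse genes passed). On the recovered reads, edgeR called 0 and DESeq2, the tool of the study's own comparison, called 30 of all mouse genes, with 0 of the 9 in either. At an unadjusted p under 0.05 the count was also 0 of 9, against 4.23% of all genes tested. The groups overlapped for all 9, where 0.692% of all genes had groups that did not overlap. Of the 9, 5 had a log2 fold change above 0 and 4 below 0, against 51.2% above 0 over all genes, and the median was 0.02 beside 0.01 for all genes. The 95% interval stayed within 2-fold either way for 7 of the 9, as it did for 79.6% of all genes; for Slc40a1 and S100g a lower level of more than 2-fold in Vil-Cre:NDI1 mice lay inside the interval. The smallest p the exact test allows with 5 against 5 mice is 0.00794, and the smallest among the 9 genes was 0.468. The signs of Cybrd1, Slc11a2 and Vdr turned when libraries were rescaled to equal totals, which moved the median of all genes from 0.01 to -0.06.

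Levels of the 9 genes spanned 1.45-fold (Heph) to 6.54-fold (S100g) between mice, and some of that span lay beside markers of position along the small intestine. Of the libraries, 5 had summed proximal markers of 16760 to 20750 normalized counts (Vil-Cre 3 and 4, Vil-Cre:NDI1 1, 2 and 3), and the other 5 had 4686 to 11910. Fabp1, a fatty acid binding protein of the upper small intestine, made up most of that sum. Slc10a2, the bile acid transporter of the ileum, had 2.94 to 20.9 normalized counts in the first 5 libraries and 199 to 561 in the other 5. Summed distal markers were 2972 to 3410 in the first 5 and 4662 to 8300 in the others. Of the proximal markers 0 of 5 tested and of the distal markers 0 of 5 tested passed the test between genotypes. The libraries lie in separate ranges on these markers and each holds fewer than 6, so no correlation with them, or between members over the 10 mice, was tested.

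All 9 genes tested were set beside that division of the libraries, and 7 of the 9 overlapped between the sets. The share of all tested genes that overlapped between these sets was not computed, so this count cannot be called usual or unusual. Fth1, Atp2b1 and Cybrd1 are described because their values, once seen, differed most. Fth1 was 13380 to 15990 normalized counts in the libraries with more proximal marker RNA and 8575 to 12340 in the other 5. Atp2b1 had the opposite order, with 1486 to 1876 normalized counts in the former and 2006 to 2866 in the latter. Cybrd1 was 13.7 to 25.2 in the former and 22.4 to 37.2 in the latter, overlapping only between Vil-Cre 1 and Vil-Cre:NDI1 3. By contrast Slc11a2 was 583 to 913 in the former and 556 to 804 in the latter, and Vdr was 3195 to 4447 and 2702 to 4078. Cybrd1, though named for the duodenum, thus had its higher values mostly outside the proximal set. It had only 14 to 37 reads per library. The 95% counting intervals of Vil-Cre 1 (15.4 to 35.7 reads) and Vil-Cre:NDI1 1 (7.65 to 23.5 reads), from different sets, overlap. These are values side by side, and the part of position in them was not tested. The proximal set held 2 controls and 3 Vil-Cre:NDI1 mice, so it was spread over both genotypes.

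**Figure D3:**
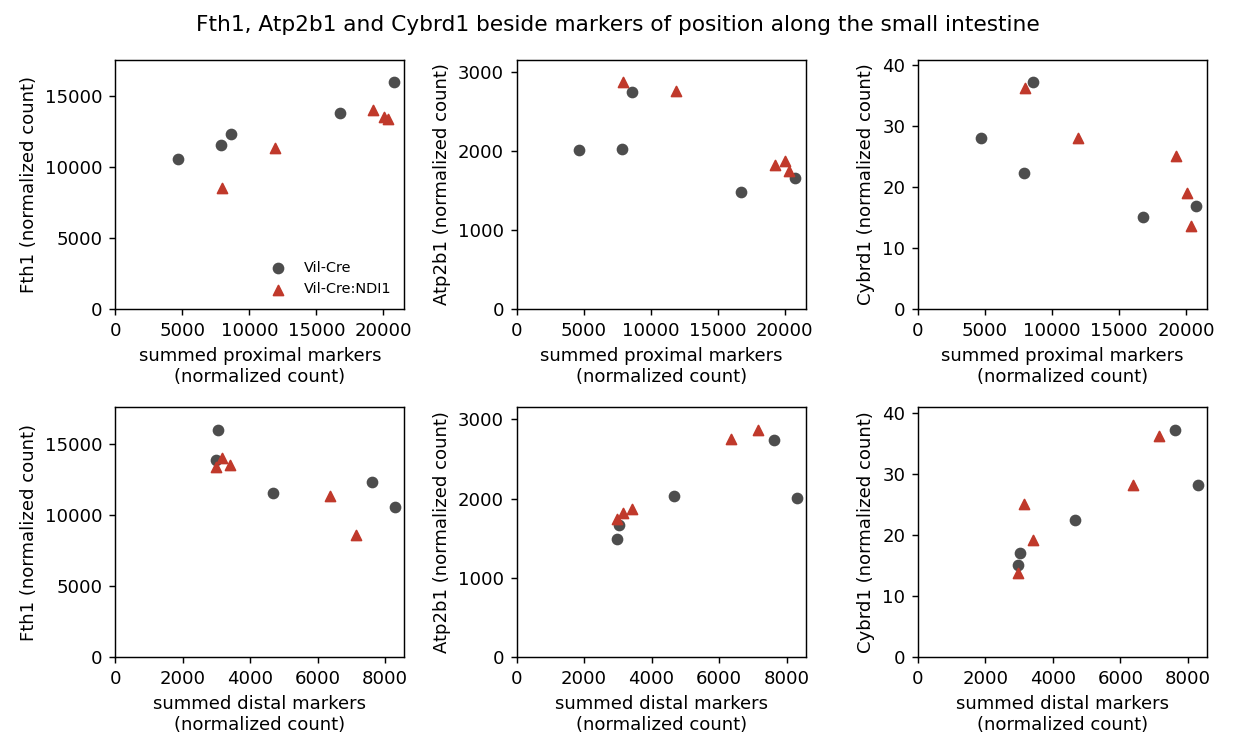
Normalized counts of Fth1, Atp2b1 and Cybrd1 (vertical axes) against summed proximal markers (upper row) and summed distal markers (lower row), each point a mouse (grey circles, Vil-Cre; red triangles, Vil-Cre:NDI1). Fth1 is highest in the 5 mice with proximal sums of 16760 or more, where Atp2b1 does not exceed 1876.

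As a description over the 10 mice and 14291 other genes, the gene with the pattern most like Cybrd1 was Tspan8, a tetraspanin, with r = 0.958. It was Krt8, a keratin of simple epithelia, for Atp2b1 (r = 0.963), Fbxl15 for Fth1 (r = 0.955) and Man1a, a Golgi mannosidase, for Heph (r = 0.966). Slc25a36, a mitochondrial pyrimidine nucleotide carrier, was nearest to Vdr (r = 0.961), Zcchc9 to Slc11a2 (r = 0.946) and Gm26714 to Tfrc (r = 0.909). For the 2 genes of widest interval the nearest were Pirb, a receptor of myeloid and B cells, for Slc40a1 (r = 0.894) and Gm27029 for S100g (r = 0.903). Each is the maximum over all those genes in the same 10 libraries, which share their tissue make-up and carry the division by position markers described above.

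The iron list was widened to storage, sensing, haem and plasma iron genes. Of 33 other iron handling genes 28 were tested, 0 passed at an adjusted or an unadjusted p under 0.05 (limma), 16 had a log2 fold change above 0 and 12 below 0, and their median was 0.04 beside 0.01 for all genes. Ftl1, the ferritin light chain, was the most abundant at 5408 normalized counts per kb, followed by the iron chaperone Pcbp1 (1190 per kb) and by Aco1, the cytosolic aconitase that becomes iron regulatory protein 1 without its iron-sulphur cluster (695 per kb). Fth1 was 0.668 times Ftl1 per kb of exon and 1.12 times with the longest coding transcript as the length, so their order depends on the length used. Hamp, which encodes the liver hormone hepcidin, had 18 reads over all libraries, and Hephl1, the paralogue of Heph, had 0.

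Trf, plasma transferrin, had the smallest p of the iron list. Its normalized counts were 598, 391.8, 341, 93.0 and 111 in controls and 59.8, 38.3, 224, 145 and 150 in Vil-Cre:NDI1 mice. Vil-Cre 1, 2 and 3 were above all Vil-Cre:NDI1 mice and Vil-Cre 4 and 5 were within their range. The log2 fold change was -1.23 ± 0.60 (SE; limma unadjusted p = 0.062, adjusted p = 0.998; exact permutation p = 0.119). Trf is chiefly a hepatocyte gene, and the hepatocyte marker sum was 22.2 to 1127 normalized counts among controls against 11.8 to 77.5 among Vil-Cre:NDI1 animals. Of the 3 hepatocyte markers tested, 1 (Alb) had an unadjusted p under 0.05 (limma), against 4.23% of all genes, and 0 an adjusted one. The adipocyte marker sum was also uneven, at 1399, 1785, 890, 127 and 322 normalized counts in Vil-Cre mice 1 to 5 and 259 to 969 in Vil-Cre:NDI1 mice, lowest in mice 1 and 2. Within each genotype the 2 mice with the lowest Trf also had the lowest adipocyte sums. Vil-Cre 5, with low Trf, had a hepatocyte sum of 771, but Vil-Cre 1 was highest in both Trf and the hepatocyte sum (1127). Vil-Cre 2, highest in the adipocyte sum (1785), had less Trf (391.8) than Vil-Cre 1 (598). The part of either cell type in the Trf values was not tested. The metalloreductase Steap4 (-0.84 ± 0.51, limma adjusted p = 0.998) and the haem oxygenase Hmox2 (0.22 ± 0.13, limma adjusted p = 0.998) came next.

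Red cell RNA is a further source of iron-related transcripts in whole tissue. Summed erythroid markers were 207 to 492 normalized counts in controls and 318 to 1371 in Vil-Cre:NDI1 mice. Of the 4 tested, all of them globin genes, 3 had an unadjusted p under 0.05 (limma), against 4.23% of all genes, and 0 an adjusted one. The part of red cell RNA in the values of Tfrc and the other iron genes was not tested.

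Of 19 other calcium and vitamin D genes 11 were tested, 5 with a log2 fold change above 0 and 6 below 0, 0 passed at an adjusted or an unadjusted p under 0.05 (limma), and the median was -0.05. Cldn15, a tight junction claudin with cation pores, was the most abundant at 2061 normalized counts per kb, followed by Cyp3a11 (1964 per kb), a cytochrome P450, and Rxra (362 per kb), the receptor that pairs with VDR. Cyp3a11 ranged from 3385 to 25510 normalized counts. Cyp24a1, the vitamin D degrading enzyme that VDR induces, had 5 reads over all libraries, Calb1 (calbindin D28k) had 6 and Trpv5, the renal calcium channel, had 0. Thus a high Vdr level stood beside very few reads of Trpv6 and Cyp24a1 and 5 to 33 reads per library of S100g in the same fasted mice.

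The smallest p of that list belonged to Cldn12, a claudin linked to paracellular calcium passage, with 287 ± 64.8 normalized counts in controls and 400 ± 161 in Vil-Cre:NDI1 mice (SD, n = 5; log2 fold change 0.41, limma adjusted p = 0.998, exact permutation p = 0.230). Atp2b2, a calcium pump of the family of Atp2b1, followed at -0.77 ± 0.49 and Pth1r, the parathyroid hormone receptor, at -0.53 ± 0.41 (log2 fold change ± SE; limma adjusted p = 0.998 for both).

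Among 18 transport and storage genes for zinc, copper, phosphate and magnesium, all tested, 12 had a log2 fold change above 0 and 6 below 0 (51.2% of all genes were above 0), and their median was 0.06. By limma, 0 passed at an adjusted p under 0.05 and 2 of 18 at an unadjusted one, against 4.23% of all genes. These were the metallothioneins Mt1 and Mt2, which bind zinc and copper. Mt1 had 4648, 5581, 4857, 4387 and 4025 normalized counts in controls and 6853, 7075, 6369, 4661 and 6192 in Vil-Cre:NDI1 mice. 4 of the 5 Vil-Cre:NDI1 mice were above every control, and Vil-Cre:NDI1 4 was within the control range. The log2 fold change was 0.40 ± 0.13 (SE; limma unadjusted p = 0.00836, adjusted p = 0.998; exact permutation p = 0.0238).

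Mt2 was split between genotypes in the same way, with 1326, 1590, 1307, 1389 and 1004 normalized counts in controls and 2141, 2520, 2068, 1250 and 1841 in Vil-Cre:NDI1 mice. Vil-Cre:NDI1 4 was again the exception. Its log2 fold change was 0.55 ± 0.18 (SE; limma unadjusted p = 0.00995, adjusted p = 0.998; exact permutation p = 0.0397). Neither difference passed the correction over all genes tested. Slc20a1, a phosphate transporter, had the third smallest p, with a log2 fold change of 0.43 ± 0.21 (limma adjusted p = 0.998), and Slc34a2, the apical sodium phosphate transporter, the third highest level, at 807 normalized counts per kb.

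**Figure D4:**
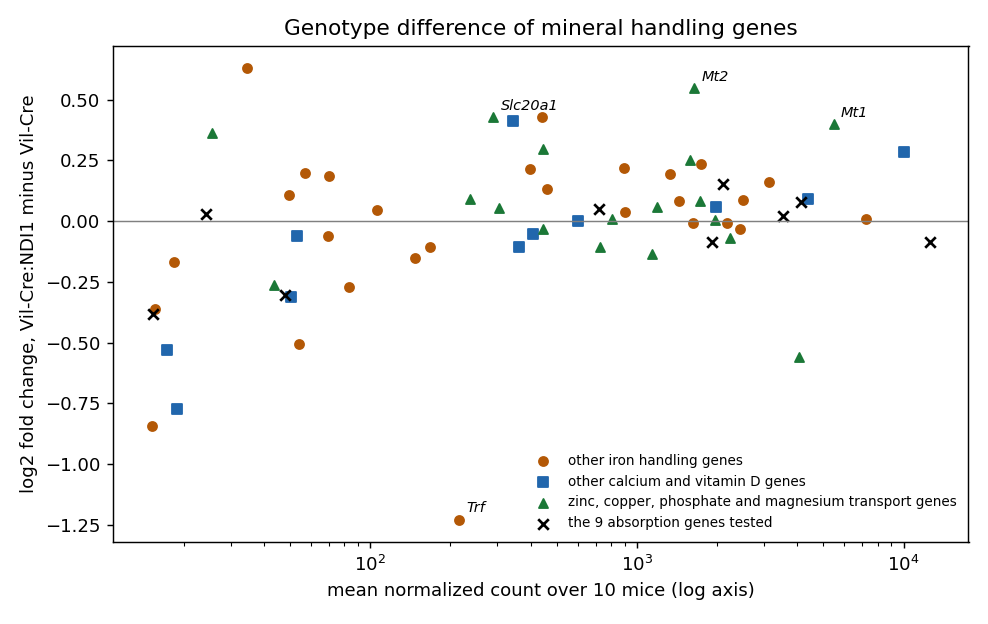
Log2 fold change, Vil-Cre:NDI1 minus Vil-Cre, against the mean normalized count over 10 mice (log axis) for the 9 absorption genes (crosses), other iron genes (circles), other calcium and vitamin D genes (squares) and zinc, copper, phosphate and magnesium genes (triangles). The 3 genes of smallest p in each list are named where their unadjusted p is below 0.1; Trf lies lowest at -1.23 and Mt2 and Mt1 lie at 0.55 and 0.40.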

How the data were processed

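RNA from the jejunum of 10 mice was sequenced as single-end reads. Per the study's methods the reads were trimmed with Trim Galore, aligned with STAR to a genome of build GRCm38 with the yeast NDI1 sequence added, and assigned to genes with Salmon. The annotation release and strand setting are not given in the sources used here. The authors deposited 1 table of gene-level signal, counts normalized by size factors. Dividing each column by its smallest value above 0 gave whole reads for 100% of values (tolerance 0.01). In Vil-Cre 3 and 4 the value of 1 read is close to 1, so this check says little there.

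Genotypes were compared with limma 3.58.1 (R 4.3.3) on log2(value + 1) with a variance trend, in genes with at least 10 in at least 5 mice. The p-values were adjusted by Benjamini-Hochberg over the 14300 mouse genes and NDI1 together, and counts of genes called leave NDI1 out. Single values were also tested exactly over all 252 assignments of mice. The steps were tested on simulated data. Alternatives included DESeq2 1.42.0 with a local fit and edgeR 4.0.16 on the recovered reads. The study's own comparison used DESeq2, with Wald tests and a local dispersion model. Lengths and element searches used GENCODE M21, which holds 45143 of the 45706 mouse identifiers. Flvcr1 and Flvcr2 were matched by identifier, and 1 of 7 distal markers was not matched.

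The members and gene lists were chosen with earlier results of these data known. Named from each list were the 3 genes of smallest p and the 3 of highest level per kb. Named beside each member was the gene of highest correlation, and the others named are absent genes or markers chosen after their values were seen. Replicates are separate mice, and within each genotype no library duplicated another (chi-square per gene of 13.2 to 61.9 between replicates). Pairs across genotypes were not checked.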

Additional observations from a re-analysis of the deposited data

Results flagged for a closer look

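Trpv6 in Vil-Cre 3, at 1.002 normalized counts, stood apart from the other 4 controls, which were listed at 0. This is 1 read, within what a count of 0 allows. Of 19 gene and genotype groups examined for a single distant mouse it was the only one found, and chance gives about 1 in 20.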

How the results depend on the processing

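The count of absorption genes called between genotypes was 0 under every alternative run. Over all mouse genes limma called 0. It called 1 with a minimum of 50 normalized counts and 1 with array weights, DESeq2 called 30, and edgeR called 0; with each mouse left out in turn limma called 0 to 1. Without Vil-Cre 3 and 4, chosen after seeing the data, DESeq2 called 275 and edgeR 0. Of the log2 fold changes of the 9 genes under these alternatives, 26 turned sign and 169 kept it, and the lowest adjusted p was 0.405 (Vdr, in DESeq2 without Vil-Cre 3 and 4). With equal library totals Cybrd1 was -0.031, Slc11a2 -0.013 and Vdr -0.041; with array weights Cybrd1 was -0.10, Slc11a2 -0.014 and Fth1 0.0031; in edgeR Vdr was -0.0081. Without Vil-Cre 3 and 4, DESeq2 gave Cybrd1 -0.26, Fth1 0.085 and Atp2b1 -0.030, and edgeR gave -0.26, 0.080 and -0.037. The cause was not tested. With each mouse left out in turn the log2 fold change was 0.052 to 0.28 for Atp2b1, -0.12 to 0.21 for Cybrd1, -0.15 to 0.036 for Fth1, 0.016 to 0.13 for Heph, -0.74 to -0.11 for S100g, -0.035 to 0.13 for Slc11a2, -0.62 to -0.014 for Slc40a1, -0.25 to 0.028 for Tfrc and -0.068 to 0.11 for Vdr. No pairing of mice by replicate number was seen (correlations of deviations -0.116 to 0.136). These correlations cannot show whether mice shared a litter or a cage. With a replicate block limma called 0 genes. Depth limits Trpv6, S100g and Cybrd1 most. Slc40a1 also had few reads (17 to 102 per library), but its highest and lowest mice differed beyond counting error.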
